A study of Mus musculus with 10 samples.

Results

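Glycolysis turns glucose into pyruvate and lactate, and its transcripts were followed here together with that of Fbp1, an enzyme that runs a step of the pathway backwards. The genes were 9 of glycolysis and glucose uptake (Slc2a1, Hk2, Aldoa, Tpi1, Pgk1, Pgam1, Eno1, Pkm and Ldha) and Fbp1, 10 in all. Members were all probe sets, the groups of short oligonucleotides that report 1 transcript, whose annotated symbol was 1 of these. This found 12 of 12488 probe sets on the MG_U74Av2 mouse array, for 9 of the 10 genes. Eno1 was not analysed here. Fbp1 was selected on its intensities in these arrays, for its large rise in the tumours, so its difference between tumours and thymocytes is given as a description with no test.

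The 10 arrays held total RNA from mouse thymus. Ikaros, encoded by Ikzf1, is a zinc-finger transcription factor needed for normal lymphocyte development, and IkL/L mice carry a hypomorphic mutation of it on both alleles. The tumours were 6 advanced thymic tumours of IkL/L mice, whose age and strain the labels do not give. The thymocytes were whole, unfractionated preparations from mice 3 weeks old on a C57Bl6 background, 2 of them wild type (WT) and 2 IkL/L. The mutation was thus shared by the tumours and the IkL/L thymocytes, and any difference in age or tissue preparation cannot be told apart from the tumour state. Nothing in the labels says that each array came from a separate mouse, so p-values measure the spread between these arrays.

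Cells take up glucose through carriers such as the one encoded by Slc2a1. Hexokinase, the product of Hk2, traps it by phosphorylation. Aldoa and Tpi1 encode enzymes of the splitting of the sugar into smaller sugar phosphates, and Pgk1, Pgam1, enolase and Pkm carry these to pyruvate with a gain of ATP. Ldha reduces pyruvate to lactate, which lets the pathway run fast, as dividing T cells are known for. Fructose bisphosphatase, encoded by Fbp1, opposes phosphofructokinase and is known mainly from gluconeogenesis in liver and kidney. Regulators known to bind near genes of this pathway are the hypoxia-inducible factor at the core ACGTG or GCGTG, and Myc with its partner Max at CACGTG.

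Sequences before a listed start are shown for 3 glycolysis genes that hold the ACGTG core and for Fbp1, which does not. Each line gives the 250 bases before the gene's first listed start, 5′ to 3′ on the gene's strand, from RefSeq on GRCm38.p6, with ACGTG and GCGTG on either strand in capitals. The windows were chr7:46845554-46845803 (plus strand) for Ldha, chr19:41911621-41911870 (plus) for Pgam1, chrX:106186850-106187099 (plus) for Pgk1 and chr13:62888283-62888532 (minus) for Fbp1. The Ldha window belongs to 1 of its 2 listed starts and lies inside the gene's full span, chr7:46842274-46855627. The Fbp1 window overlaps the end of its gene's span, at 62888298.
Ldha: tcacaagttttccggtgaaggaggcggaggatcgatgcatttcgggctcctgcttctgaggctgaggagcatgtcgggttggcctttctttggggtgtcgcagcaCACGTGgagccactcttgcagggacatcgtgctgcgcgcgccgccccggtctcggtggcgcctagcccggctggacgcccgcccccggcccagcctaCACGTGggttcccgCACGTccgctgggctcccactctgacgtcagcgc
Pgam1: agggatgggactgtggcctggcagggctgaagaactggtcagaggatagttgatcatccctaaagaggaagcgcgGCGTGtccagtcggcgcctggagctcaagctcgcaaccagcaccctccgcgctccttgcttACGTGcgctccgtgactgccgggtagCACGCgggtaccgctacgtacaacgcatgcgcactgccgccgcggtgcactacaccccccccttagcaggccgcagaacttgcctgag
Pgk1: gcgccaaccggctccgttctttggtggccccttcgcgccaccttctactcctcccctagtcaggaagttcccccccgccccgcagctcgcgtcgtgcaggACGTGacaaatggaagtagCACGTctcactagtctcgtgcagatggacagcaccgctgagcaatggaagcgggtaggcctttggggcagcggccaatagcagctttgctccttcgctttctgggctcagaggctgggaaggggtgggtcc
Fbp1: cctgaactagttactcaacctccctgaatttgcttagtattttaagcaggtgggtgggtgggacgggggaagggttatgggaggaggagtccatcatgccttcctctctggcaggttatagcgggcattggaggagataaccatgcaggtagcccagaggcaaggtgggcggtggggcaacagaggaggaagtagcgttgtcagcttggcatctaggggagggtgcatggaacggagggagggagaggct

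Ldha held 2 copies of CACGTG, each of which reads as ACGTG on both strands, and another ACGTG on the minus strand 34 bases before the listed start. Pgam1 held 1 ACGTG and 2 GCGTG, and Pgk1 held 2 ACGTG. Among the 9 measured members, ACGTG lay in 5 windows, those of Slc2a1, Hk2, Ldha, Pgam1 and Pgk1, and in 16.6% of 27025 windows of all genes. GCGTG lay in 2 of the 9 and in 28.2% of all windows, and CACGTG in 1, Ldha, and 6.05%. With every listed start counted, 8 of 13 member windows held ACGTG, as did 16.6% of 32851 windows, and these included other starts of Aldoa and Pkm. A match is a description of the letters and not a binding site. The windows of Fbp1 and Tpi1 held neither core.

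Among the tumours, the later enzymes of glycolysis were brighter on most arrays than in the thymocytes, with a median log2 difference over the 8 tested glycolysis genes of 1.03. The differences of Aldoa, Pgam1 and Pkm passed the test against the mean of WT and IkL/L thymocytes. Those of Hk2, Tpi1, Pgk1 and Ldha were positive without passing, and that of Slc2a1 was near 0. Intensities are as the authors scaled them, in arbitrary units, and levels of different probe sets cannot be compared. Values under 16 were raised to this floor before log2 was taken. Differences are means of log2 values ± standard error from limma, with Benjamini-Hochberg adjustment of p-values across all 7172 probe sets tested and 0.05 as the threshold. A gene with more than 1 probe set was counted by its brightest. The median over all 5476 tested genes was -0.03 in the same comparison.

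**Figure D1:**
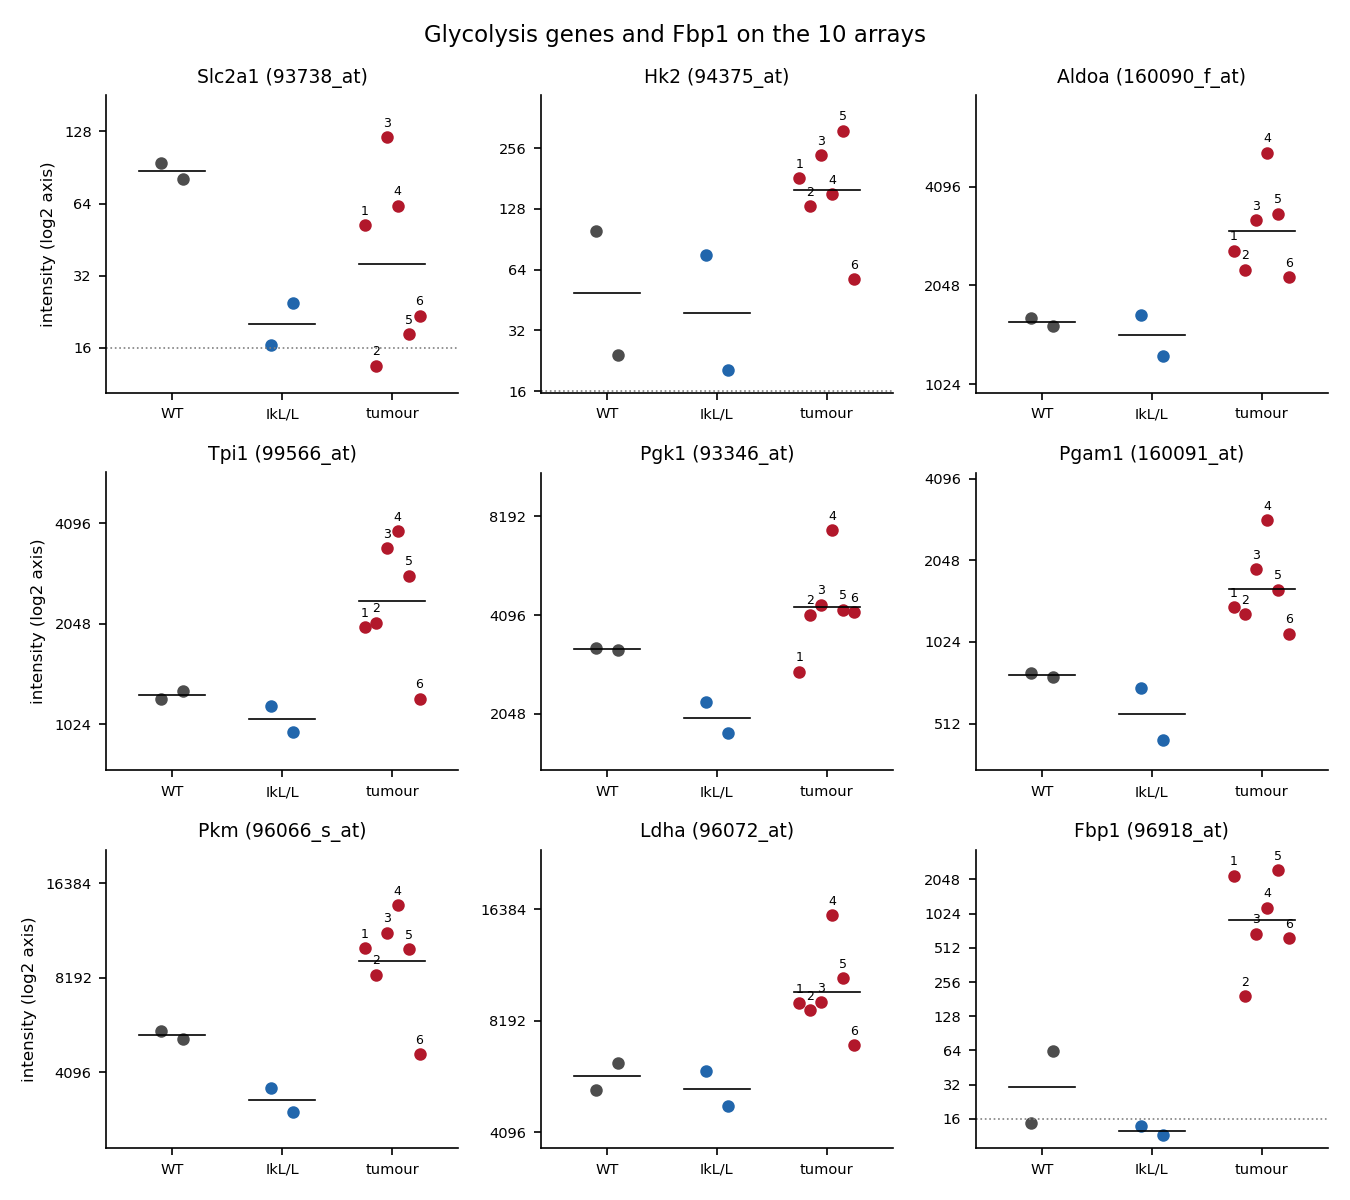
Intensity (log2 axis) of the brightest probe set of each of the 9 measured genes on 2 WT, 2 IkL/L and 6 tumour arrays, 1 point per array, tumours numbered, with a bar at the geometric mean of each group and a dotted line at the floor of 16. Every tumour lies above every thymocyte array for Aldoa, Pgam1, Ldha and Fbp1, and the Slc2a1 values of tumours spread from 13.5 to 121.

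Glucose entry was read through Slc2a1, the carrier of the plasma membrane. Slc2a1 (probe set 93738_at; chr4:119108745-119137330) gave 94.1 and 81.4 in WT and 16.4 and 24.7 in IkL/L cells. In tumours the lowest value was 13.5, the median 37.0 and the highest 121. WT arrays were high and IkL/L arrays low without overlap, and the tumours covered the range of both. The levels also followed the fluidics module that washed the array. Both WT arrays and tumours 1 and 3 (52.1 and 121) were on module 2, and the IkL/L arrays and tumours 2, 5 and 6 (13.5, 18.3 and 21.8) on modules 1 and 4. Tumour 4, at 62.7, was alone on module 3. The log2 difference of tumours from the thymocyte mean was -0.19 ± 0.55 (limma, adjusted p = 0.864). Set against each genotype, it was -1.25 ± 0.70 from WT (adjusted p = 0.435) and 0.87 ± 0.70 from IkL/L thymocytes (adjusted p = 0.493). With module as a block these were -0.14 (limma, adjusted p = 0.946) and -0.08 (adjusted p = 0.941). The values lay near the floor on several arrays, and on tumour 2 below it.

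Hk2 (94375_at; chr6:82725025-82774454) was dim as well. It read 100.1 and 24.1 in WT and 75.5 and 20.4 in IkL/L cells. Tumours ran from 57.6 over a median of 166.9 to 313.3, and 5 of the 6 exceeded every thymocyte array. The log2 difference of 1.85 ± 0.57, a fold of 3.60, did not pass (adjusted p = 0.0849). Only 1 thymocyte array held Hk2 above the array's median, so the gene was bright enough to test only through the tumours. The counts and medians of the tested glycolysis genes include it. In each thymocyte group 1 array was brighter than tumour 6. With hybridization run as a block, a grouping of the arrays made here from their hybridization times, the difference was -0.45. A second Hk2 probe set, 161313_at, stayed between 1.0 and 26.3 on all arrays and was not tested.

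Aldoa, the aldolase of muscle and most dividing cells (160090_f_at; chr7:126795234-126800994), rose in the tumours. Thymocyte values were 1624.4 and 1535.2 in WT and 1663.5 and 1252.4 in IkL/L. Tumours read 2616.3, 2285.0, 3233.1, 5192.2, 3383.7 and 2169.0, all above every thymocyte array. The log2 difference was 0.99 ± 0.25, a fold of 1.99 (limma, adjusted p = 0.0473). Its other probe set, 161889_f_at, gave 0.87 ± 0.22 (adjusted p = 0.0446) and also did not overlap, with 860.3 to 1671.4 in tumours and 508.4 to 788.4 in thymocytes. The suffix f marks probes that can match related sequences, so signal from near-identical copies of Aldoa cannot be told apart here.

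Tpi1, triosephosphate isomerase (99566_at; chr6:124810586-124814158), read 1216.5 and 1282.1 in WT and 1162.9 and 966.5 in IkL/L cells. Tumours 1 to 5 lay between 2000.8 and 3873.7, above all thymocytes, and tumour 6 at 1217.8 lay among them. The log2 difference was 1.06 ± 0.31 (limma, adjusted p = 0.0728). Pgk1, phosphoglycerate kinase (93346_at; chrX:106187100-106203699), showed the genotypes apart, with 3256.2 and 3193.6 in WT and 2222.9 and 1788.0 in IkL/L thymocytes. Its tumour values were 2752.7 on tumour 1, 4100.4 to 4409.1 on tumours 2, 3, 5 and 6 and 7432.7 on tumour 4. The difference was 0.77 ± 0.25 (adjusted p = 0.0967), and 5 of 6 tumours were above every thymocyte array.

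Pgam1, phosphoglycerate mutase (160091_at; chr19:41911871-41918665), had the smallest adjusted p of the glycolysis genes. It read 785.8 and 763.4 in WT and 689.9 and 446.8 in young IkL/L cells. In tumours 1 to 6 it read 1379.7, 1294.2, 1899.8, 2884.1, 1595.2 and 1099.5. The groups did not overlap. The log2 difference was 1.29 ± 0.27, a fold of 2.45 (limma, adjusted p = 0.0244).

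Pkm, pyruvate kinase (96066_s_at; chr9:59656576-59679372), was above every thymocyte array on 5 of 6 tumours. Thymocytes read 5518.4 and 5211.1 in WT and 3651.6 and 3050.4 in IkL/L. Tumours read 10166.8, 8376.9, 11387.5, 13948.0 and 10115.0 for 1 to 5, and tumour 6, at 4665.4, lay below both WT arrays. The log2 difference was 1.13 ± 0.28, a fold of 2.19 (limma, adjusted p = 0.0423). On the other probe set, 162032_f_at, tumour 6 read 2795.8 and every tumour was above every thymocyte array (1867.4 to 5140.6 against 1062.7 to 1734.0), with a difference of 1.23 ± 0.29 (adjusted p = 0.0355). The Pkm probe sets thus differed on tumour 6. The second carries the suffix f, its match to related sequences was not checked, and the cause of the difference was not tested.

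Ldha, lactate dehydrogenase A (96072_at; chr7:46842274-46855627), read 5321.4 and 6308.1 in WT and 5979.2 and 4831.9 in IkL/L preparations. Tumours ran from 7041.7 to 15765.2, with a median of 9160.5. No tumour overlapped the thymocytes, although the difference of 0.81 ± 0.23, a fold of 1.75, did not pass (limma, adjusted p = 0.0634).

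In all, 3 of the 8 tested glycolysis genes rose against the mean of both thymocyte groups and none fell, while 3.69% of all tested genes rose, 3.03% fell and 6.72% changed in either direction. Unadjusted p was under 0.05 for 7 of the 8, and for 24.5% of all genes. The 7 include Hk2, which was bright enough to test only through the tumours. Tumours were above every thymocyte array for 3 of the 8 (Aldoa, Pgam1 and Ldha), and for 5.51% of all genes. Since the members were chosen with results of these arrays known, no test was made over the list.

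The comparisons with each thymocyte group alone share the tumour arrays with the pooled one and rest on 2 control arrays each. Against WT thymocytes 0 of 8 passed in limma, with a median log2 difference of 0.86 and adjusted p from 0.173 to 0.569. Unadjusted p was under 0.05 for 6 of the 8 and for 16.5% of all genes. Over all genes 1.97% passed. Against IkL/L thymocytes 0 of 8 passed, with a median of 1.15 and adjusted p from 0.0612 to 0.493, and 1.39% of all genes passed. Here unadjusted p was under 0.05 for 7 of the 8 and for 19.6% of all genes. Pgam1 came nearest, with 1.53 ± 0.35 (adjusted p = 0.0612), then Pkm with 1.48 ± 0.35 (adjusted p = 0.0718). Differences of the members from IkL/L thymocytes were positive for 8 of 8 and from WT for 7 of 8, Slc2a1 being the exception. Over all genes 46.1% and 50.1% were positive.

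**Figure D2:**
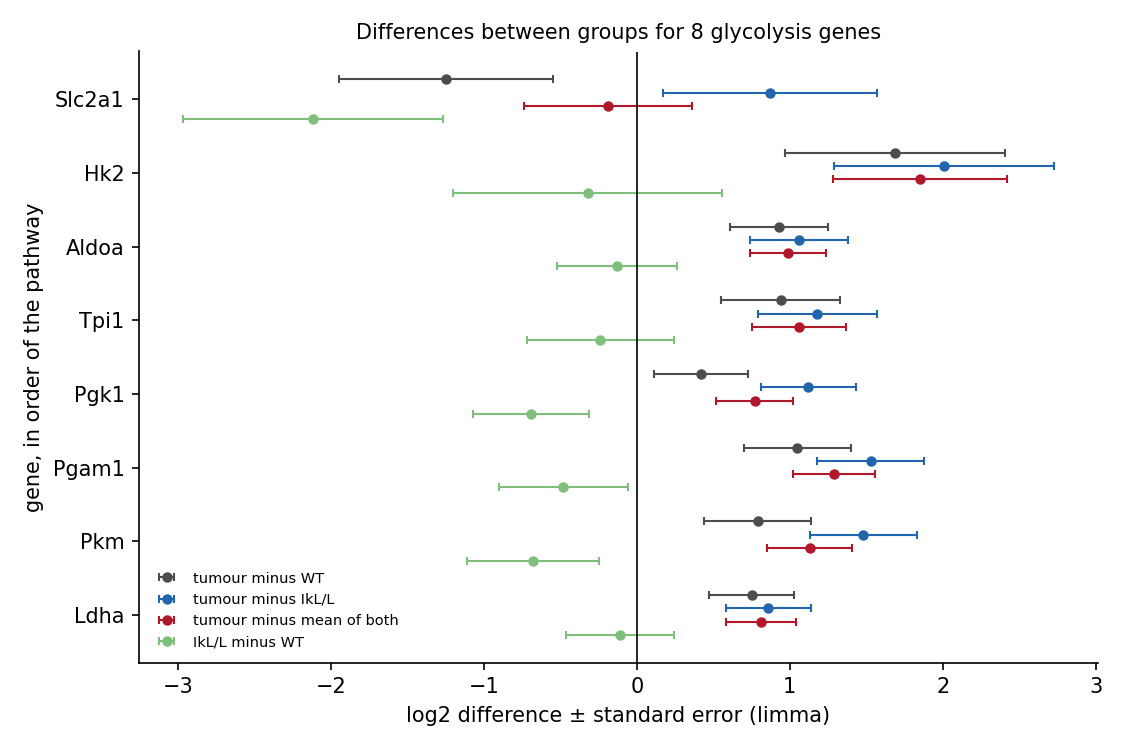
Differences in log2 intensity (points) with limma's standard error (bars) for the 8 tested glycolysis genes in 4 comparisons that share arrays. In the comparison with the mean of both thymocyte groups, 7 of 8 points lie above 0, from 0.77 for Pgk1 to 1.85 for Hk2, and Slc2a1 lies at -0.19.

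The calls depended on single arrays. With 1 of the 10 arrays left out at a time, Pgam1 passed in 5 fits, Aldoa in 2 and Pkm in 1. Aldoa lost its call without tumour 1, 2, 3 or 5 or any 1 thymocyte array, and its adjusted p ran from 0.0281 to 0.174 over the 10 fits. Pgam1 lost its call without tumour 5 or any 1 thymocyte array (adjusted p from 0.0139 to 0.106), and Pkm without any array other than tumour 6 (0.00416 to 0.149). Without tumour 6 the count was 6, namely Hk2, Aldoa, Tpi1, Pgam1, Pkm and Ldha, and the share of all tested probe sets called was 10.7% instead of 6.27%.

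Tumour 6 stood apart in several respects. It had the lowest value of the 6 tumours for 6 of the 8 genes, and tumour 4 had the highest for 6. The median log2 difference of the 8 genes from the thymocyte mean was 0.80, 0.77, 1.48, 1.74, 1.21 and 0.36 on tumours 1 to 6. Tumour 6 was also the only tumour array of the chip lot that held all 4 thymocyte arrays, per the scanner records. Its ratio of 3′ to 5′ signal, a sign of RNA or labelling quality, was 2.943 for the Actb control and 1.215 for the Gapdh control, against 1.526 to 2.331 and 0.92 to 1.059 on the other 9 arrays. The part of RNA quality in the low values of tumour 6 was not tested.

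Within that lot the differences rested on tumour 6 alone. There the median of the 8 genes was 0.36, with 0.75 for Pgam1, 0.52 for Aldoa, 0.34 for Ldha and 0.14 for Pkm. With 1 tumour array, no count of passing genes is given. The second Pkm probe set was at 1.05 there. Apart from tumour 6, chip lot and tumour state cannot be told apart. With hybridization day as a block the median was 1.01 (Aldoa 1.15, Pgam1 1.44, Pkm 0.93), with hybridization run 1.03 and with fluidics module 0.93. In these fits 0, 0 and 1 (Pgam1) of the genes passed, and 1.81%, 0.0139% and 3.60% of all probe sets. Against WT alone and within lot 1, Tpi1 was at -0.04 and Pkm at -0.20, with 1.17 on the second Pkm probe set.

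**Figure D3:**
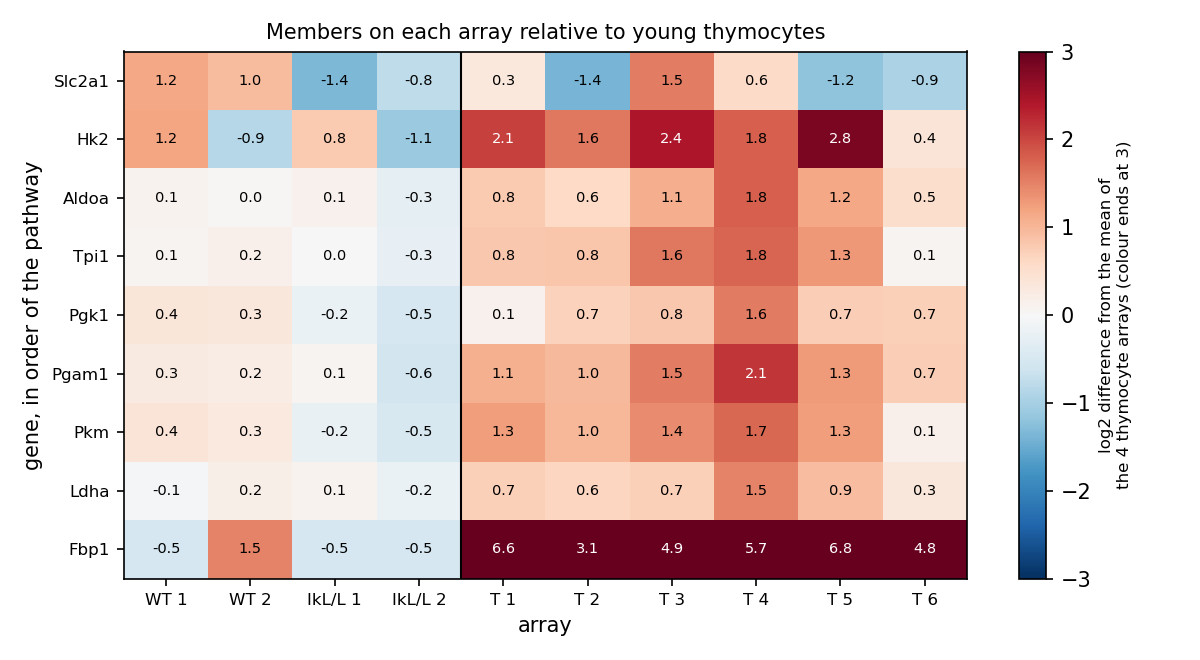
Difference in log2 intensity (floor of 16 applied, colour and number in each cell) of each measured gene on each array from the mean of the 4 thymocyte arrays, genes in pathway order. The Fbp1 row holds the highest values, tumour 4 has the highest cell for 6 of the 8 glycolysis genes, and in the column of tumour 6 the cells of Tpi1 and Pkm are near 0.

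The tumours did not differ from each other equally in all members. The SD of log2 intensity over the 6 tumours was 0.39 for Ldha, 0.46 for Aldoa and Pgk1, 0.49 for Pgam1, 0.54 for Pkm and 0.61 for Tpi1, and its median over all genes was 0.38. For Hk2 it was 0.84, for Slc2a1 1.17 and for Fbp1 1.37, larger than that of 89.2%, 96.0% and 98.1% of genes. Slc2a1 was at the floor on 1 tumour.

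Levels of the members from Aldoa to Ldha were positively correlated over the 6 tumours. In their 15 pairs Pearson's r was positive in every one, from 0.354 to 0.972, with a median of 0.828. With Slc2a1 and Hk2 included, 27 of 28 pairs were positive, from -0.051 to 0.972, with a median of 0.73. The closest were Aldoa with Pgam1 (r = 0.972, exact permutation p = 0.00278; Spearman's rho = 0.943, exact permutation p = 0.0167) and Aldoa with Ldha (r = 0.952, exact permutation p = 0.00139; rho = 1.0, exact permutation p = 0.00278). After adjustment over the 36 pairs of the 9 genes both came to 0.05, and 0 pairs were below 0.05, with 8 below it unadjusted. Without tumours 4 and 6, the farthest from the median for Aldoa, r was 0.853 and 0.778. The same step, leaving out the 2 tumours farthest from the median of the first gene of a pair, left all 15 positive, from 0.326 to 0.972 with a median of 0.739, and 5 of them below 0.5. Pgam1 with Ldha went from 0.926 to 0.346 without tumours 4 and 6, and Pkm with Ldha from 0.828 to 0.326. With 2 of 6 tumours left out, such values rest on few arrays over a narrower range, so no conclusion was drawn from the drop. All 6 arrays were scaled to the same trimmed mean, and tumours 1 to 5 share their chip lot. Under this scaling the median intensity of the array was lowest on tumour 4 (79.75) and highest on tumour 6 (113.25). The part of these array-wide differences in the correlations was not tested. Pairs of Fbp1 with the other members ran from -0.132 to 0.485.

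Gapdh, the glycolytic dehydrogenase between Tpi1 and Pgk1, is on the array as a control and was left out of the fit. Its probe set for the 5′ part of the transcript read 14486.8 to 21836.3 in tumours and 11173.0 to 14327.4 in thymocytes, so that no values overlapped. The log2 difference was 0.53 (two-sided exact permutation test of 6 against 4 arrays, p = 0.00952, adjusted over the 3 control probe sets to 0.0143). For the 3′ part it was 0.50 (exact permutation p = 0.00476, the smallest the 210 arrangements allow) and for the middle part 0.61 (exact permutation p = 0.019), where tumour 6, at 13624.0, was below 1 of the WT arrays. With quantile normalization the 5′ difference was 0.30 and with arrays scaled to the same median 0.60. Tumour 6, the only tumour on the chip lot of the thymocytes, was lowest for the 5′ part. It read 14486.8 there, beside 14217.1 and 14327.4 in WT and 12515.9 and 11173.0 in IkL/L. For the 3′ part it read 17595.2 against 11829.9 to 14441.1 in thymocytes. The permutation tests did not take chip lot into account. Their adjustment did not cover all tested probe sets, as that of the members did. The control reads the same transcript 3 times, so these are not 3 independent results.

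Young IkL/L thymocytes, compared with WT of the same age, had lower values for all 8 glycolysis genes, but no difference passed. The median log2 difference was -0.40, and that of all genes 0.03, with 53.7% of all genes positive. In limma 0 of 8 passed, as did 0.00% of all genes. Unadjusted p was under 0.05 for 1 of the 8 and for 3.05% of all genes. That 1 was Slc2a1, 4.35-fold lower, with 16.4 and 24.7 in IkL/L against 94.1 and 81.4 in WT (log2 -2.12 ± 0.85, unadjusted p = 0.0321, adjusted p = 0.999). With fluidics module as a block, which sets all WT arrays apart from all IkL/L arrays, the Slc2a1 difference was -0.06 (limma, adjusted p = 0.991) and the median of the 8 genes -0.06. Both IkL/L arrays lay below both WT arrays for 5 of the 8 (Slc2a1, Tpi1, Pgk1, Pgam1 and Pkm) and for 18.5% of all genes. Pgk1 had -0.69 ± 0.38 and Pkm -0.68 ± 0.43. For Hk2, Aldoa, Tpi1, Pgam1 and Ldha the differences lay between -0.48 and -0.11. The second probe sets of Aldoa (0.37 ± 0.34) and Pkm (0.24 ± 0.44) pointed the other way. With 2 arrays a group, single arrays set these values, and the median ran from -0.80 without the first IkL/L array to -0.13 without the second.

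Fbp1 (96918_at; chr13:62864753-62888298) was at or near the floor in the thymocytes, with 14.8 and 63.5 in WT and 13.7 and 11.5 in IkL/L. In tumours it read 2216.2, 192.6, 679.4, 1157.7, 2483.2 and 624.7, or 1225.6 ± 926.7 (SD, n = 6). Every tumour was above every thymocyte array, and tumour 5 was 12.9-fold above tumour 2. Tumours were 28.1-fold above WT, with 1 WT array at the floor, and at least 56.1-fold above IkL/L thymocytes, where both were. On the log2 scale these are 4.81 and 5.81. They are values that chose the gene and carry no test.

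Fbp1 was high in both chip lots. Tumour 6, on the lot of the thymocytes, was 4.79 on the log2 scale above their mean. With day, module and run as blocks the difference was 5.23, 5.46 and 6.73. It was 3.82 from WT when only the brighter WT array was kept, and 5.81 when only the array at the floor was. Fbp1 was bright enough to test only through the tumours, so no test is given between the thymocyte groups. The log2 difference of IkL/L from WT thymocytes was -0.99 ± 1.07. It rested on the WT array at 63.5, the only one of the 4 above the floor. Without that array both groups were at the floor.

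Markers of other cells known to express Fbp1 were read beside it, and in whole tissue fewer cells of a type and less RNA per cell cannot be told apart. The summed levels of those of liver and of kidney tubule overlapped between tumours and thymocytes. The summed intensity of 12 hepatocyte markers was 353.3 to 582.1 in tumours and 490.9 to 657.0 in thymocytes, and 11 of the 12 were at the floor on at least 1 tumour, with albumin (Alb) at 7.7 to 40.6. For 8 kidney markers it was 200.8 to 376.4 and 188.4 to 257.9, with 0 of 8 above all thymocytes on every tumour. Markers of monocytes and macrophages, cells that express the enzyme in humans, were higher in the same arrays. Of 15 tested 8 rose, among them C1qa, C1qb, Apoe and Lgmn, beside 3.69% of all tested genes. Of these 8, Lgmn and Mrc1 were bright enough to test only through the tumours. The sum of 19 was 11162.3 to 22418.4 in tumours and 4119.0 to 4991.2 in thymocytes. Apoe was a large part of this sum, and the other 18 came to 6200.7 to 12060.7 and 2954.5 to 3554.2. Tumour 2, the lowest for Fbp1, read 15551.6 in the sum of 19 and 9241.4 without Apoe, and tumour 5, the highest for Fbp1, read 13154.8 and 7630.9. Tumour 1, with 2216.2 for Fbp1, had the highest of both sums, 22418.4 and 12060.7. The part of monocytes and macrophages in the Fbp1 level was not tested.

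**Figure D4:**
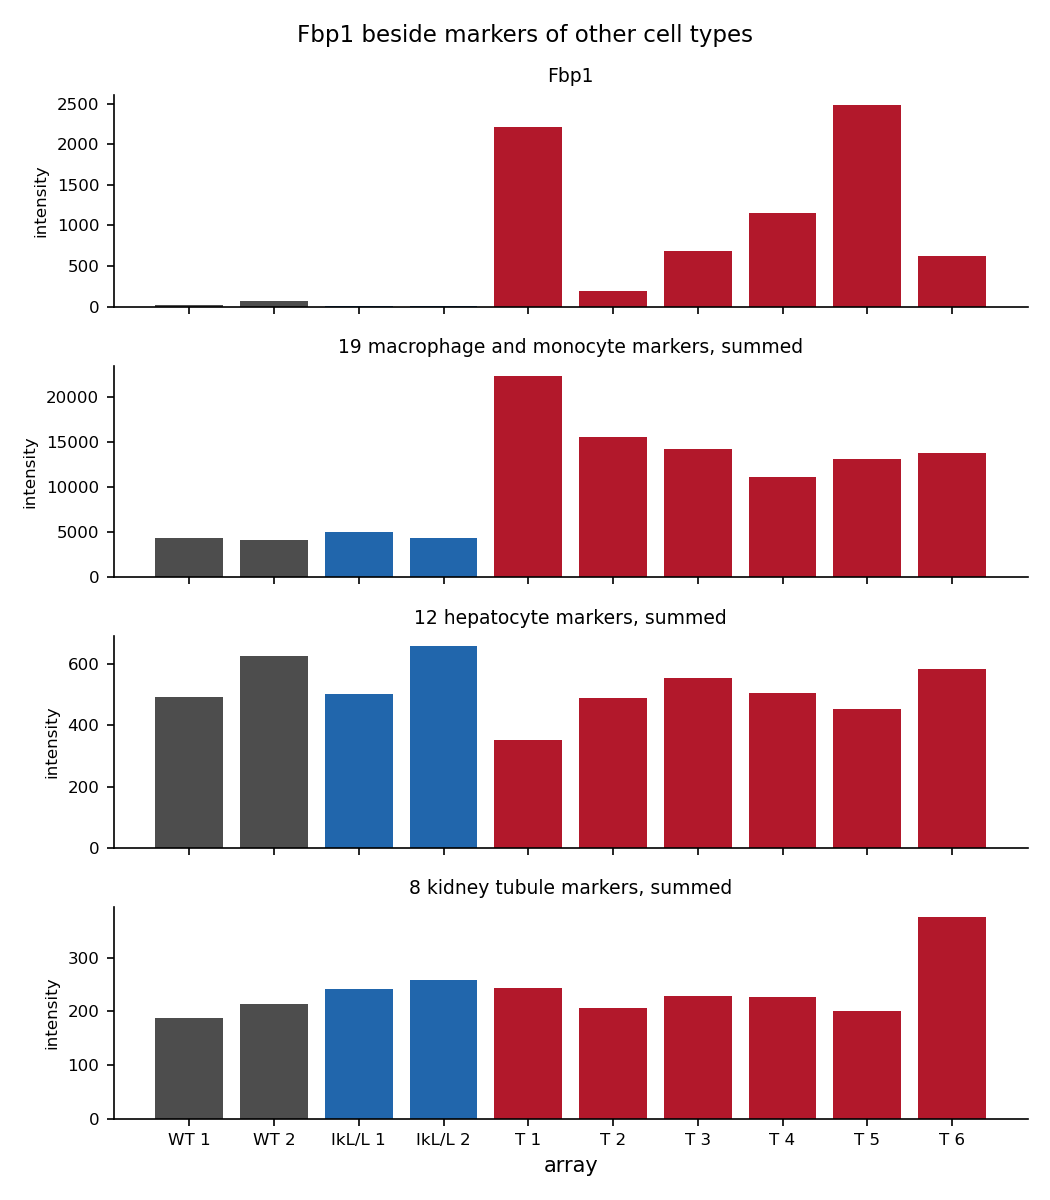
Intensity of Fbp1 on each array (top) above the summed intensity of 19 macrophage and monocyte, 12 hepatocyte and 8 kidney tubule markers, bars from 0, 1 bar per array. Fbp1 and the macrophage sum are higher on all 6 tumours than on all 4 thymocyte arrays, while the hepatocyte sums overlap.

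Markers of the labelled cell type were present in every sample. The sum of 15 thymocyte markers was 36100.5 to 53766.4 in tumours and 68716.6 to 79055.9 in thymocytes, with 1 of 15 higher (Ptcra) and 5 lower (Cd8a, Cd4, Rag1, Rag2 and Cd5). Of 16 stromal and endothelial markers 10 were tested and 5 rose (Dcn, Fn1, Mgp, Pdgfrb and Vwf). Of 6 tested thymic epithelial markers 4 fell (Krt8, Krt18, Ccl25 and Ctsl). Over all tested genes 3.69% rose and 3.03% fell. Dcn, Mgp, Pdgfrb and Vwf were bright enough to test only through the tumours, and Krt8, Krt18 and Ccl25 only through the thymocytes. Their calls are thus a description only. Of 17 genes of the cell cycle 0 passed in limma, with 2 at an unadjusted p under 0.05, beside 24.5% of all genes. The part of these cell types in the glycolysis values was not tested.

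The tests of other glycolysis genes covered fewer than were listed. Of 28 other genes of glycolysis and glucose uptake, 20 had a probe set and 12 were bright enough to test. In limma 0 of the 12 passed, with 3 at an unadjusted p under 0.05 (Hk1, Pfkl and Ldhb), 5 were positive, and their median log2 difference was -0.04. Over all genes 24.5% had an unadjusted p under 0.05 and 47.4% were positive, so these counts do not set the 12 apart. Ldhb, the lactate dehydrogenase subunit of oxidative tissue, had -1.09 ± 0.43 (limma, adjusted p = 0.16) beside the 0.81 of Ldha. Pfkl, a phosphofructokinase and so the forward partner of Fbp1, had 0.57 ± 0.22 (adjusted p = 0.16), and Hk1, the hexokinase of most tissues, 0.83 ± 0.33 (adjusted p = 0.166). Aldoc, the brain aldolase, had 0.56 ± 0.30 (adjusted p = 0.289). The carrier Slc2a3, at -0.04, and the lactate carrier Slc16a1, at -0.03, were near 0. Whether the 8 members and these 12 genes differ as lists was not tested.

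Among other enzymes of gluconeogenesis none passed. Of 7 listed, 5 were tested and 0 passed in limma, with a median log2 difference of 0.58. Unadjusted p was under 0.05 for 1 of the 5 and for 24.5% of all genes. G6pc3, a widely expressed glucose-6-phosphatase, had 0.98 ± 0.30 (limma, adjusted p = 0.0834) and Slc37a4, its glucose-6-phosphate carrier, 0.86 ± 0.59 (adjusted p = 0.396). Fbp2, the muscle form, stayed between 8.0 and 37.4 on all arrays and was not tested. Pck1, which makes phosphoenolpyruvate, was dim and also not tested, with 39.7 to 108.6 in tumours and 17.7 to 32.1 in thymocytes, values that did not overlap.

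In 3 neighbouring pathways 1 of 22 tested genes passed, or 4.55%, beside the 6.72% of all genes. Of 9 genes of the pentose phosphate pathway 0 passed in limma, with a median log2 difference of -0.11. Unadjusted p was under 0.05 for 4 of the 9 and for 24.5% of all genes. Tkt, the transketolase that links it to glycolysis, had 1.04 ± 0.31 (limma, adjusted p = 0.0824), and H6pd and Rpia had -0.50 and -0.40. Of 6 genes of pyruvate entry into mitochondria 1 rose, Dld, a subunit of pyruvate dehydrogenase, from 335.9 to 511.5 in thymocytes to 569.1 to 852.2 in tumours (0.68 ± 0.16, adjusted p = 0.0363). Pdk1, the kinase that inhibits that complex, had 0.15 ± 0.26. Of 7 tested genes of glycogen metabolism 0 passed in limma, with 1 at an unadjusted p under 0.05.

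Among 10 tested regulators of glycolysis 1 passed. Myc rose in all 6 tumours, from 174.2 to 261.7 in thymocytes to 461.5 to 753.3 (1.58 ± 0.19, limma, adjusted p = 0.00191). It was, like most members, lowest on tumour 6 and highest on tumour 4. These tumours also had the highest and the lowest median intensity of the array (113.25 and 79.75). The part of Myc in the levels of the members was not tested. Hif1a, the oxygen-regulated subunit of the hypoxia-inducible factor, which is controlled mainly as a protein, had 0.03 ± 0.20 (adjusted p = 0.94). Of 7 tested hypoxia-induced genes outside glycolysis 0 passed in limma, with a median of 0.57 on the log2 scale. Unadjusted p was under 0.05 for 3 of the 7 and for 24.5% of all genes. Differences were positive for 6 of the 7 and for 47.4% of all genes. Among these Hmox1 had 0.83 ± 0.24 (adjusted p = 0.076) and Ddit4 0.85 ± 0.32 (adjusted p = 0.144).

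Over the 6 tumours alone, the 5 genes most like Fbp1 and the 5 most like the mean of the glycolysis genes had none in common. Among 5474 genes the highest Pearson correlations with Fbp1 were those of Nars (0.988), Slc39a6 (0.984), Tmed7 (0.963), Hacd3 (0.962) and Tpst1 (0.961). Nars ranged from 119.8 to 319.0 over the tumours and Tmed7 from 830.3 to 1249.6. With the mean of the scaled glycolysis genes the highest among 5467 genes were Mafk (0.988), Pitpnb (0.988), Arpc4 (0.983), Bid (0.983) and Pes1 (0.979), each highest on tumour 4 and lowest on tumour 6. These correlations rest on 6 arrays and are given as a description, with no test.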

How the data were processed

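The deposited table gave 1 intensity per probe set and array, and the authors had scaled it: a mean trimmed by 2% at both ends came to 300.2 on all 10 arrays. The software and probe weighting behind it were not given in the sources used here. The deposited scanner records (other text fields) gave chip lot, hybridization day and time and fluidics module, and no dates are printed. Hybridization run is not in the records and was formed here. With arrays in order of hybridization time, a gap of more than 10 minutes began a new run. Probe sets were named from the platform's annotation where they had 1 symbol (10855 of 12488), and 10839 matched the RefSeq gene table of GRCm38.p6.

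A floor of 16, the 20th percentile over the table, was applied, and log2 was taken. The 66 control probe sets were removed, and probe sets above their array's median on at least 2 arrays were tested, which left 7172. limma 3.58.1 in R 4.3.3 was fitted with 1 mean per group over all 10 arrays (7 residual and 3.17 prior degrees of freedom). Of the members 11 of 12 probe sets passed this filter. No 2 arrays held identical values, and the number of arrays limits the precision.

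The members, gene lists and comparisons were chosen with earlier results of these data known. All members are named. From each other pathway list up to 4 genes with the smallest unadjusted p were eligible, with further members given as values near 0 or as untested. For likeness, the 5 genes with the highest correlation were named. Further genes were chosen after their values were seen, namely Slc2a3, Slc16a1, Alb, Fbp2, Pck1 and Hif1a. Alternatives changed the floor, filter, scaling, array weights, probe set choice and blocks, or left out 1 array.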

Additional observations from a re-analysis of the deposited data

How the results depend on the processing

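Medians of the 8 glycolysis genes kept their sign in every setting. Within lot 1, where tumour 6 is the only tumour, or with chip lot as a block, they were 0.26 against WT, 0.52 against IkL/L and 0.36 against both. The median of IkL/L minus WT was -0.06 with fluidics module as a block, and -0.80 to -0.13 with 1 array left out.

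The count of 3 glycolysis genes against both thymocyte groups was 0 with no filter, where more probe sets share the adjustment. It was 1 (Pgam1) with arrays scaled to the same median and 7 with array weights. With lot, day or run as a block and within day 1 it was 0, with module as a block 1, and with 1 array left out 0 to 6. It was 4 with quantile normalization. Over all probe sets the count of 450 was 53, 130, 258 and 1 with lot, day, module and run as a block. It was 921 with array weights, 294 with no filter, and 145 to 764 with 1 array left out. With arrays scaled to the same median 366 probe sets passed, with quantile normalization 470 and within day 1 45. Against IkL/L the count was 0, where 1.42% of all probe sets passed. It was 1 (Pgam1) with the stricter filter or quantile normalization, where 1.93% and 2.27% of all probe sets passed. With array weights it was 6, beside 10.3% of all probe sets. With 1 array left out it was 0 to 3, the 3 without tumour 6, beside 4.63% of all probe sets.

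Signs that turned belonged to differences that had not passed. With module as a block Slc2a1 was -0.08 against IkL/L, and Hk2, Aldoa and Tpi1 were 0.27, 0.03 and 0.15 in IkL/L minus WT. With run as a block Hk2 was -0.10 against WT (also within run 1), -0.80 against IkL/L, -0.45 against both and 0.70 in IkL/L minus WT (also within run 2). Within lot 1, or with chip lot as a block, Tpi1 was -0.04 and Pkm -0.20 against WT. With the mean over probe sets Aldoa was 0.12 in IkL/L minus WT. With 1 array left out, Slc2a1 against both ran from -0.53 to 0.06, and in IkL/L minus WT Hk2 ran from -1.35 to 0.70, Aldoa from -0.33 to 0.08, Ldha from -0.26 to 0.05 and the second Pkm probe set from -0.00 to 0.48. The cause of these changes was not tested.

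No paired analysis was possible because the labels give no replicate number that pairs the arrays of different groups. Values near the floor of 16, as for Fbp1 in thymocytes and Slc2a1, have no order.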
